A study of Mus musculus with 75 samples.

Results

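The glutathione and glucuronide conjugation enzymes were followed as 46 protein-coding genes out of 55536 genes in the count table. They were taken by symbol: glutathione S-transferases of the alpha (Gsta, 4 genes), kappa (Gstk, 1), mu (Gstm, 7), omega (Gsto, 2), pi (Gstp, 3), theta (Gstt, 4) and zeta (Gstz, 1) classes, and the microsomal transferases (Mgst, 3). Also taken were the UDP-glucuronosyltransferases of the Ugt1a (9), Ugt2a (3) and Ugt2b (7) families and the UDP-glycosyltransferases of the Ugt3a family (2). The rule uses symbols alone.

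The livers were those of wild-type C57Bl/6 mice, all labelled male, aged 3 weeks, 5 months or 10 months. Exposed mice had dams whose drinking water held 3.07 µM tributyltin (TBT, an organotin), a daily dose of 0.5 mg per kg, up to weaning, and the other mice had dams given the vehicle. The libraries of 3 weeks were 8 vehicle and 8 TBT, those of 5 months 8 vehicle and, after TBT, 16 low-risk and 10 high-risk, and those of 10 months 6 vehicle and, after TBT, 5 low-risk, 6 uninvolved liver of high-risk mice and 7 tumor. How the risk label of a 5-month liver was set is not stated in the labels. A further 10-month vehicle library is labelled as a tumor and is described apart. The 2 libraries of 3-week vehicle mouse 3 were summed, and so were the libraries of uninvolved livers 3 and 6, whose counts differed far less (chi-square per gene 3.48) than those of the next closest uninvolved pair (39.3), which left 7 and 5 samples. The labels name separate mice by number but give neither dams nor litters, so p-values measure the spread between these samples.

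Glutathione S-transferases join the tripeptide glutathione to reactive electrophiles, and the products leave the cell through ATP-driven pumps. UDP-glucuronosyltransferases of the endoplasmic reticulum (here Ugt1a, Ugt2a and Ugt2b) transfer glucuronic acid from UDP-glucuronic acid to bilirubin, steroids and drugs. Liver holds much of the body's capacity for both reactions. Many of these genes are known targets of the sensors NRF2, CAR, PXR and AhR, and several are known to differ between the zones of the liver lobule.

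Libraries held 2.83 to 45.5 M counts (M, mega). Levels are given as counts per M (CPM) scaled by TMM over all samples. Libraries that deviated technically numbered 6, by a total below 5 M, more than 35000 detected genes or a mitochondrial share above 10%, and the library labelled 3-week TBT 4 went against its sex label. Of the hepatocyte, cholangiocyte, macrophage, endothelial and stellate markers used, 0 were at 0 in all libraries of the 5- or 10-month groups compared.

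The genes sat at 14 places of GRCm38 (mm10), counting genes within 1 Mb of each other as 1 place. All 9 Ugt1a genes lay on chromosome 1 between 88055388 and 88220002, where each has its own first exon and all splice to the same last exons. Between 50.3% (Ugt1a6a) and 60.6% (Ugt1a6b) of the exonic bases of a Ugt1a gene belonged to another Ugt1a gene as well. The Ugt2a and Ugt2b genes lay together on chromosome 5 (86889767 to 87490871), the Gstm genes on chromosome 3 (107895821 to 108044894), and Gsta4, Gsta1 and Gsta2 on chromosome 9 (78182774 to 78355788). Gsta3, apart from the other Gsta genes, was on chromosome 1 (21240589 to 21265661). The Gstt genes were on chromosome 10, the Gstp genes and Gsto1 and Gsto2 on chromosome 19, Ugt3a1 and Ugt3a2 on chromosome 15, Mgst1 and Gstk1 on chromosome 6, Mgst2 on chromosome 3, Mgst3 on chromosome 1 and Gstz1 on chromosome 12.

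Several members have near copies, so that the gene a read belongs to is uncertain. Of the 50-base stretches of Gsta1, 90.5% also occurred in another gene (75.7% in the predicted gene Gm3776). The share was 49.8% for Gsta2, 54.3% for Gstp2, 33.7% for Gstp1, 41.7% for Ugt2b5, 37.4% for Ugt2b38, 28.8% for Gstm3 and 18.9% for Gstm1. The kit used marks strand. The strand setting and the handling of reads that fit several genes in the authors' counting are not given in the sources used here.

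The upstream sequence of Gsta1 and Gsta2 is shown because these near copies were both higher in high-risk liver in the results that follow. Each run is the 250 bases before the transcription start of the RefSeq annotation (GRCm38.p6), 5′ to 3′ on the gene's strand. Capitals mark the longest run that both windows share, 29 bases, which starts 118 bases before the start of Gsta1 and 121 bases before that of Gsta2.
Gsta1 (chr9:78230419-78230668, plus strand): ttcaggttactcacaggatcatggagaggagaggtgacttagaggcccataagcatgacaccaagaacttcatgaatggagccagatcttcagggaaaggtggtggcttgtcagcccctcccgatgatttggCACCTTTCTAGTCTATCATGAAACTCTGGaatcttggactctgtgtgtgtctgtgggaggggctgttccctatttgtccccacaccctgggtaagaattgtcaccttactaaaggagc
Gsta2 (chr9:78347146-78347395, minus strand): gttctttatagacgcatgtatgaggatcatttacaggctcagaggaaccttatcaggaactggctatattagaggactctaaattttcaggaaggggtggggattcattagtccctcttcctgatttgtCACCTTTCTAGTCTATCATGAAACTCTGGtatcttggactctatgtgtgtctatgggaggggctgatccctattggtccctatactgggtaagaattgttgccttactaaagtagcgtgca

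RefSeq windows were matched for 42 of the 46 members, and each motif was searched on both strands. The core of the antioxidant response element, TGACNNNGC, bound by NRF2, was in windows of 4 members (Gsta3, Gstm5, Gstm7 and Mgst1) and in 10.2% of all 32851 windows. The xenobiotic response element TTGCGTG, bound by AhR, was in 0 member windows and in 0.925% of all windows. These matches are descriptions of letters in 250 bases.

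In the unexposed adult liver a few genes held most of the counts. Over the 6 vehicle livers of 10 months, Mgst1, the microsomal transferase, had the highest mean level per length, at 1505 CPM per kb of exon. Gstp1 (451 CPM per kb), Gsta3 (445), Gstm1 (413) and Ugt2b5 (380) came next. For Ugt1a genes only the exonic bases of the gene alone were counted as length, and Ugt1a1, the bilirubin-conjugating enzyme, was then first of its locus at 169 CPM per kb. The lowest of the 40 genes tested at 10 months were Ugt1a7c (0.640 CPM per kb), Gsta1 (0.589) and Ugt1a2 (0.459). The order of Gstp1, Gsta3 and Gstm1 is not resolved, since Gstp1 alone varied as 698 ± 201 CPM before division by length (SD, n = 6).

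Some members had few or no counts throughout. Ugt2a1 and Ugt2a2, which share 98.8% and 94.5% of their exonic bases with other genes, had 0 counts in every library. How reads of shared exons were counted is not given, so these 0 counts do not show that Ugt2a1 and Ugt2a2 were silent. Ugt1a8 (at most 0.408 CPM in a sample of the groups compared), Gstt4 (at most 1.02), Mgst2 (at most 2.77) and Gsto2 (at most 3.06) did not pass the filter on low counts in any comparison. The filter left 38 members for the 5-month tests, where Ugt1a10 and Ugt1a2 were also left out, 40 at 10 months and 37 at 3 weeks, where Gsta1 was left out too.

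At 5 months the conjugation genes of high-risk livers split into a small group that rose and a larger group that fell, relative to low-risk livers. Of 38 members tested, 8 were higher and 17 lower at adjusted p under 0.05 (edgeR quasi-likelihood test, Benjamini-Hochberg over all genes), or 21.1% and 44.7%. Over all 14773 genes tested, 20.3% were higher and 18.5% lower, so the share that rose was near that of all genes and the share that fell was above it. The median log2 fold change was -0.34 over the members and -0.01 over all genes. In bulk tissue, fewer cells of a type and less RNA per cell cannot be told apart. The alpha class had 3 higher and 1 lower of 4, the mu class 3 higher and 2 lower of 7, Ugt1a 1 higher and 4 lower of 6, and Ugt2b 1 higher and 3 lower of 7. The Ugt2a member Ugt2a3 and both Ugt3a genes were lower, and no kappa or omega gene passed.

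**Figure D1:**
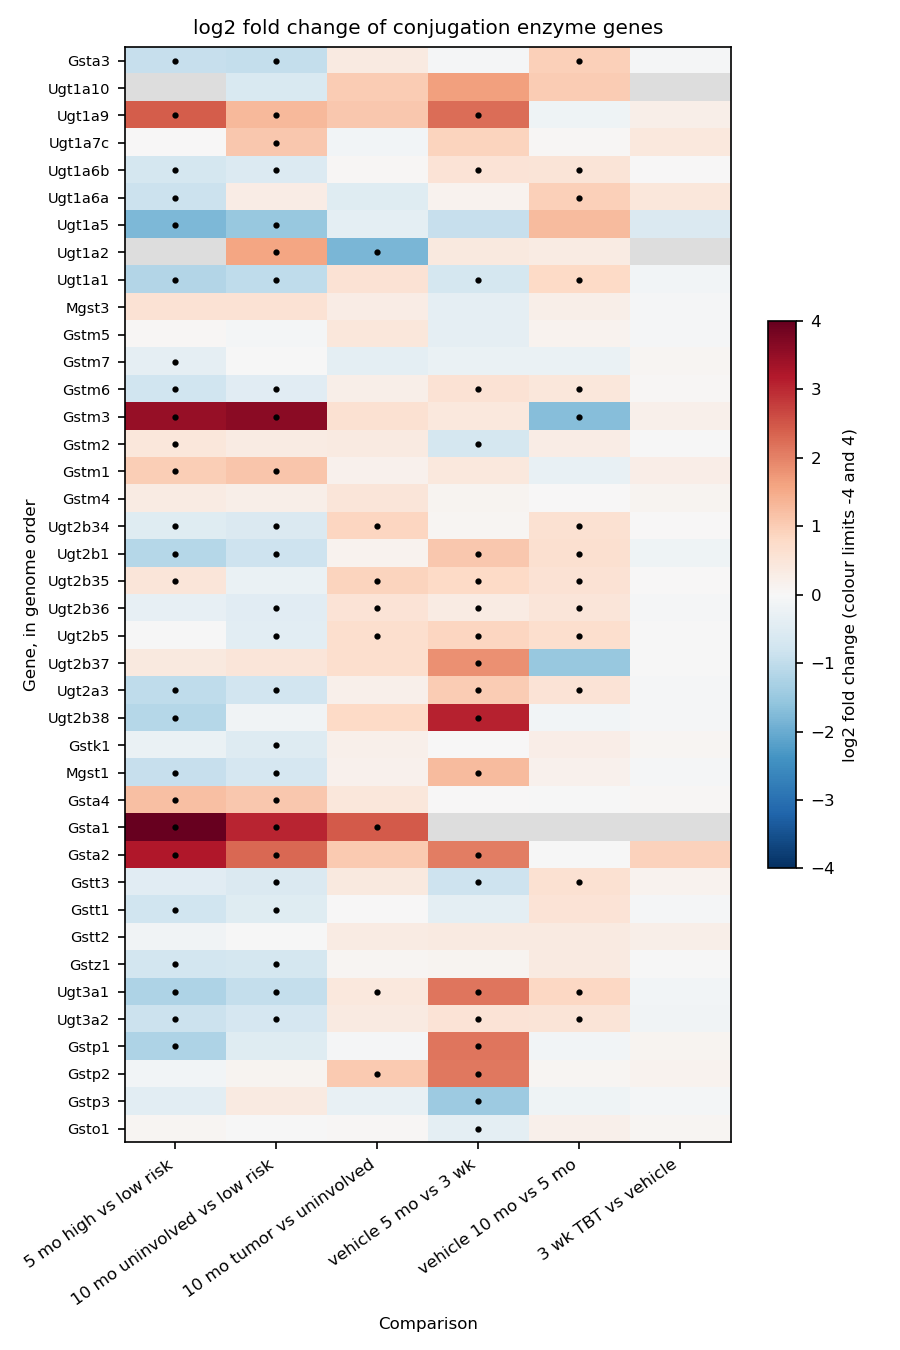
Heat map of log2 fold changes (colour) of the 40 members tested in at least 1 comparison (rows, in genome order) in 6 comparisons (columns), where black dots mark an adjusted p under 0.05 and grey cells were not tested. Gsta1, Gsta2, Gstm3 and Ugt1a9 are red in both risk comparisons, Ugt2b1, Ugt2a3, Ugt3a1 and Ugt3a2 are blue there, and the 3-week TBT column has no dot.

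Gsta1 and Gsta2, alpha-class transferases known to be inducible and to act on lipid peroxidation products, rose strongly. The level of Gsta1 was lowest at 1.75, median 13.6 and highest at 19.9 CPM in 10 high-risk livers, against 0, 0.309 and 13.1 CPM in 16 low-risk livers. All 10 high-risk livers were above the low-risk mean, while 2 low-risk livers (13.1 CPM in number 2, and 2.16 CPM) lay inside the high-risk range. The log2 fold change of Gsta1 was 4.0 (SE 0.80, edgeR adjusted p 2.05e-04), and 5.0 (SE 0.61, adjusted p 3.06e-07) without low-risk liver 2. Gsta2 ran from 21.4 through a median of 42.0 to 63.3 CPM in high-risk livers and from 1 through 3.38 to 10.9 CPM in low-risk livers, without overlap. Its log2 fold change was 3.21 (SE 0.34, adjusted p 6.08e-08), the smallest adjusted p of the members. The predicted gene Gm3776, which shares most of its sequence with Gsta1 and was picked after the values were seen, differed by 5.44 on the log2 scale (SE 0.87, adjusted p 8.98e-06), so that the rise cannot be assigned to 1 of these copies.

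Gstm3 and Gstm1, mu-class transferases, rose as well. Gstm3 was at 23.4, 225 and 462 CPM (lowest, median, highest) in high-risk livers and at 10.1, 16 and 50.9 CPM in low-risk livers. High-risk livers other than number 1, 9 of 10, were above every low-risk liver. The log2 fold change of Gstm3 was 3.48 (SE 0.41, edgeR adjusted p 1.68e-07), an 11.2-fold difference. Gstm1, the most abundant mu gene, was at 541, 1205 and 1485 CPM against 385, 492 and 1137 CPM, with ranges that overlap and a log2 fold change of 0.98 (SE 0.19, adjusted p 1.25e-04). Gstm2 was 0.46 higher (SE 0.15, adjusted p 0.0158) at 64.7 ± 14.5 CPM against 46.8 ± 17.1. Gsta4, which conjugates 4-hydroxynonenal, was at 48.1, 66.5 and 90.8 CPM against 17.1, 28.7 and 52.8 CPM, and its log2 fold change was 1.19 (SE 0.17, adjusted p 1.76e-06). Of the high-risk livers, 8 of 10 had more Gsta4 than every low-risk liver.

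**Figure D2:**
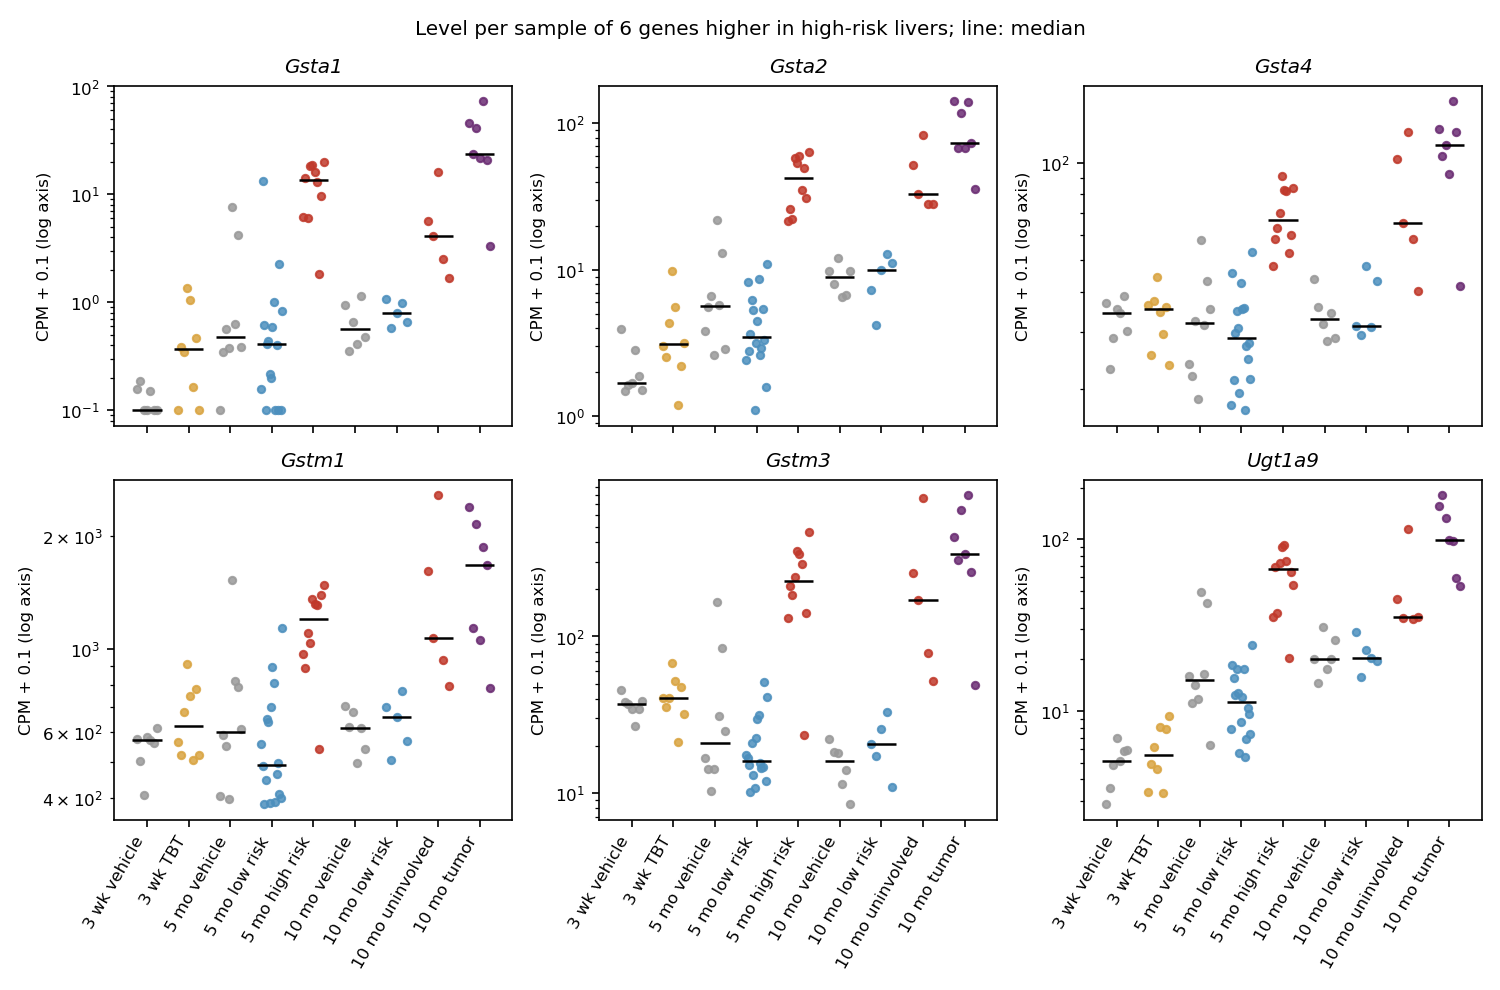
Level of Gsta1, Gsta2, Gsta4, Gstm1, Gstm3 and Ugt1a9 per sample (points, CPM + 0.1 on a log axis) in 9 groups, with the group median as a line. Gsta2 of the 10 high-risk livers of 5 months (21.4 to 63.3 CPM) lies above that of all 16 low-risk livers (1 to 10.9 CPM), and tumors have the highest medians of Gsta1, Gsta2, Gsta4, Gstm1, Gstm3 and Ugt1a9.

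Of the abundant glutathione transferases, Gsta3, Mgst1 and Gstp1 fell. Gsta3, the main alpha-class gene here, was at 454, 658 and 1056 CPM in high-risk and at 747, 1192 and 1931 CPM in low-risk livers (log2 fold change -0.92, SE 0.14, edgeR adjusted p 2.47e-06). Mgst1 was at 720, 1138 and 2395 CPM against 1695, 2250 and 5034 CPM (-0.91, SE 0.20, adjusted p 3.94e-04). Both genes overlapped between the groups, with all high-risk livers below the low-risk mean. Gstp1, the pi-class enzyme that is higher in male than in female mouse liver, was at 68.3, 259 and 442 CPM against 284, 658 and 1138 CPM, and its log2 fold change was -1.23 (SE 0.24, adjusted p 1.46e-04). The pseudogene Gstp-ps, a near copy picked after the values were seen, differed by -1.18 (SE 0.23, adjusted p 9.47e-05).

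Other transferases lower in high-risk livers were Gstt1 (-0.81), Gstm6 (-0.79), Gstz1 (-0.75) and Gstm7 (-0.35), with levels of 115 ± 28.9, 37.0 ± 5.67, 403 ± 92.0 and 38.1 ± 9.76 CPM in the 10 high-risk livers. Gstz1 is the maleylacetoacetate isomerase of tyrosine breakdown. Members that did not pass were Gstk1 (72.3 ± 19.6 CPM in high-risk livers), Gsto1 (59.8 ± 10.0), Gstt2 (31.2 ± 11.5), Gstm4 (28.2 ± 8.10), Gstp2 (20.5 ± 15.3), Gstt3 (18.7 ± 13.6), Gstp3 (17.2 ± 8.56), Mgst3 (16.3 ± 6.17) and Gstm5 (7.76 ± 2.11). Summed over their members, the mu class had 1553 ± 402 CPM in high-risk against 789 ± 264 CPM in low-risk livers, the Mgst genes 1336 ± 550 against 2513 ± 826 CPM, and the pi class 305 ± 121 against 672 ± 273 CPM. All 46 members together had 6931 ± 1146 CPM (n = 10) against 9551 ± 1629 CPM (n = 16). The sums are descriptions without a test.

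Within the Ugt1a locus the genes moved in opposite directions. Ugt1a9 was at 20.3, 66.8 and 92.1 CPM in high-risk livers and at 5.32, 11.2 and 24 CPM in low-risk livers, and 9 of 10 high-risk livers exceeded every low-risk liver. Its log2 fold change was 2.42 (SE 0.29, edgeR adjusted p 1.83e-07). Ugt1a1 went the other way, with 37.7, 58.1 and 110 CPM against 83.6, 146 and 174 CPM and a log2 fold change of -1.18 (SE 0.17, adjusted p 2.66e-06). Ugt1a5 fell most in this comparison, from 12.7, 24.5 and 84.6 CPM in low-risk to 5.45, 8.28 and 24.3 CPM in high-risk livers (-1.81, SE 0.31, adjusted p 2.68e-05). The ranges of Ugt1a1 and Ugt1a5 overlapped, with all high-risk livers below the low-risk mean. Ugt1a6b (28.1 ± 8.28 against 45.8 ± 10.5 CPM) and Ugt1a6a (3.45 ± 0.960 against 6.36 ± 2.98 CPM) were lower by 0.69 and 0.87 on the log2 scale. Ugt1a7c did not pass, where the high-risk median was 2.18 CPM and that of the low-risk livers 1.07 CPM (log2 fold change 0.00, SE 0.36). Its low-risk level rests on liver 2, at 22 CPM, and without that liver the log2 fold change was 0.67 (SE 0.37, adjusted p 0.149).

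The makeup of the Ugt1a counts therefore differed. Ugt1a9 made up 36.5% ± 12.1 (SD, n = 10) of the summed Ugt1a CPM in high-risk livers and 5.01% ± 2.02 (n = 16) in low-risk livers. Ugt1a1 made up 36.3% ± 8.86 and 58.0% ± 5.86. The summed Ugt1a level was 168 ± 37.3 against 240 ± 50.6 CPM. Reads from the shared last exons fit all 9 genes, and how they were counted is not given in the sources used here.

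**Figure D3:**
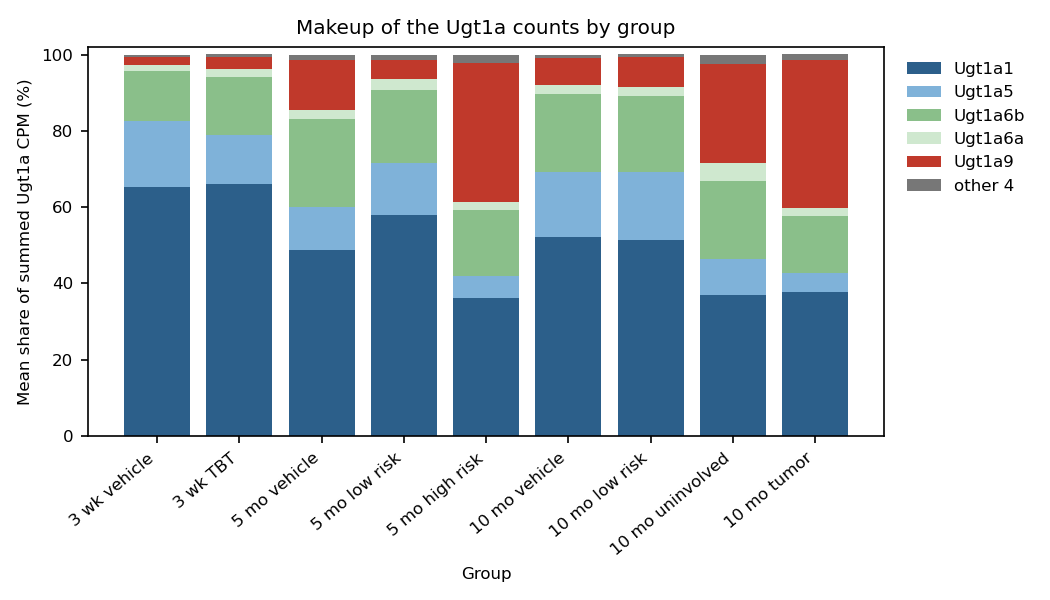
Mean share of the summed Ugt1a CPM (%, stacked bars from 0) that each gene took in 9 groups, with the 4 genes of lowest level joined. The Ugt1a9 share is 36.5% in 5-month high-risk livers, 26% in uninvolved livers and 38.9% in tumors, against 5.01% and 7.72% in the low-risk livers of 5 and 10 months.

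Most Ugt2 and Ugt3a genes fell or did not pass. Ugt2b1, which acts on steroids and drugs, was at 108, 175 and 529 CPM in high-risk and at 375, 515 and 717 CPM in low-risk livers (log2 fold change -1.15, SE 0.21, edgeR adjusted p 5.25e-05). Ugt3a1 was at 6.21, 20.1 and 81.3 CPM against 29.0, 59.4 and 112 CPM (-1.25, SE 0.32, adjusted p 2.40e-03). For both genes 8 of 10 high-risk livers lay below every low-risk liver, and 1 lay above the low-risk mean. Ugt2a3 (-1.02), Ugt3a2 (-0.87), Ugt2b38 (-1.14) and Ugt2b34 (-0.49) were also lower, at 141 ± 54.0, 223 ± 93.7, 5.52 ± 3.22 and 390 ± 91.5 CPM in high-risk livers. Ugt2b35 was the exception, 0.49 higher (SE 0.17, adjusted p 0.0214) at 220 ± 51.0 against 162 ± 58.2 CPM. Ugt2b5 (460 ± 137 CPM), Ugt2b36 (355 ± 84.8) and Ugt2b37 (3.31 ± 1.69) did not pass.

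**Figure D4:**
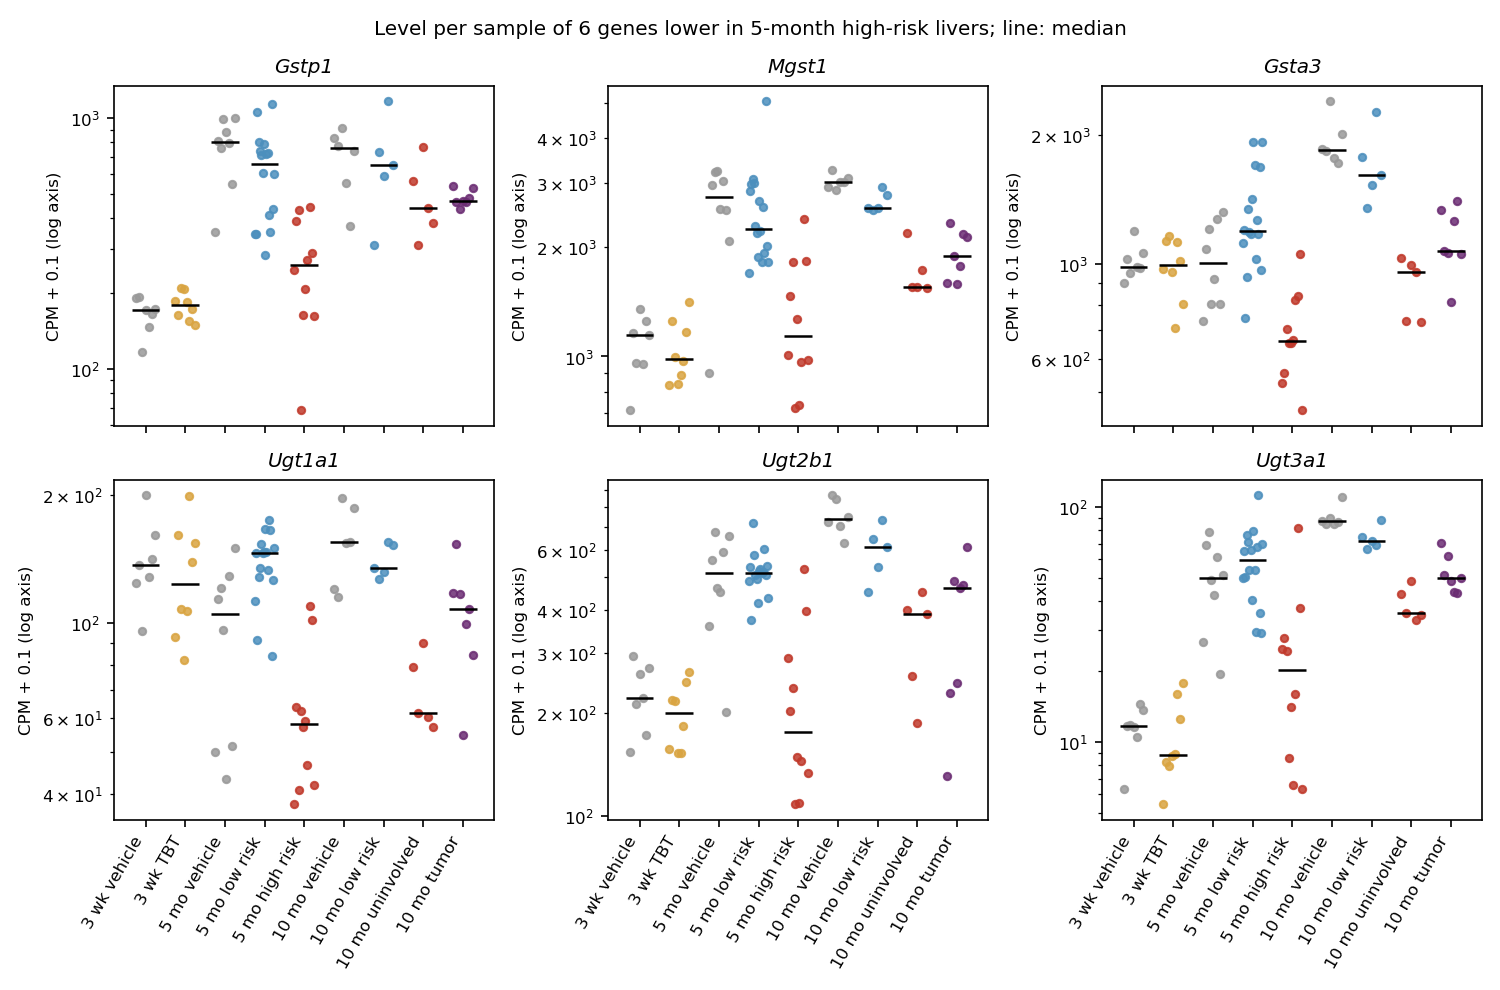
Level of Gstp1, Mgst1, Gsta3, Ugt1a1, Ugt2b1 and Ugt3a1 per sample (points, CPM + 0.1 on a log axis) in 9 groups, with the group median as a line. The medians of high-risk livers lie below those of low-risk livers at 5 months for each gene (1138 against 2250 CPM for Mgst1), and high-risk liver 1 is the highest of its group for Gstp1, Mgst1, Ugt1a1, Ugt2b1 and Ugt3a1.

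High-risk liver 1 stood apart from the other 9. It had 1.75 CPM of Gsta1, 23.4 of Gstm3, 541 of Gstm1 and 20.3 of Ugt1a9, the lowest value of its group in each, and the highest value of Ugt2b1 (529 CPM), Ugt3a1 (81.3), Ugt1a1 (110), Mgst1 (2395) and Gstp1 (442). Its Gsta2, at 49.4 CPM, and its Gsta4, at 52.7 CPM, were inside the range of the other high-risk livers. Without this liver 28 members passed (8 higher, 20 lower), among them all 25, beside 6088 genes in place of 5745. Sequencing batch 2 alone, with 7 high-risk and 10 low-risk livers, gave 22 members and 5403 genes, and batch 1 alone, with 3 and 6, gave 8 members (3 higher, 5 lower) and 773 genes. In batch 1 alone the log2 fold change of Gsta1 was 1.82 and its adjusted p 0.504, and Gsta4, Gstp1 and Ugt1a5 also did not pass, at 0.92, -0.90 and -1.83. Low-risk liver 2, the highest of its group for Gsta1, is 1 of the 6 low-risk livers of batch 1. Ugt3a1 did not pass in batch 2 alone (-1.28, adjusted p 0.0786).

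Some lists of zone and cell markers also differed between high-risk and low-risk livers, and others moved little or in both directions. Of 7 pericentral hepatocyte markers, 0 were higher and 6 lower in 5-month high-risk livers. Their summed level ran from 1138 through a median of 1664 to 6358 CPM in high-risk livers and had a median of 9094 CPM in low-risk livers. Of 6 periportal hepatocyte markers 1 was higher and 1 lower (3330 to 6260 CPM against 2533 to 6383 CPM). Of 7 cholangiocyte markers 4 were higher and 0 lower (43.0 to 361 CPM against 38.0 to 243 CPM), of 5 proliferation markers 5 were higher (27.6 to 238 CPM against 6.03 to 40.3 CPM), and of 6 hepatocyte markers 3 were lower. Of 7 stellate and fibroblast markers 5 were higher and 1 lower (542 to 1445 CPM against 317 to 647 CPM), and the 3 T and NK cell markers tested were all higher (2.14 to 6.58 CPM for the list of 4 against 0.571 to 2.28 CPM). Of 6 endothelial markers 1 was higher and 3 lower (175 to 413 CPM against 231 to 472 CPM), and of 7 macrophage markers 3 were higher and 1 lower (254 to 570 CPM against 288 to 663 CPM). Of 5 B and plasma cell markers 1 was higher and 0 lower, and of 5 erythrocyte markers 0 were higher and 1 lower. The part of these markers in the results for the members was not tested.

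Against the 8 vehicles of 5 months, 5 members were higher and 13 lower of 38, beside 8.47% and 7.38% of all genes. The vehicles are also part of the fit above, and the low-risk and vehicle comparisons share the high-risk livers. Gsta1 (3.94, SE 1.09, edgeR adjusted p 0.0139), Gsta2 (2.32, SE 0.47, adjusted p 1.45e-03), Gstm3 (2.08, SE 0.55, adjusted p 0.0102), Ugt1a9 (1.73, SE 0.40, adjusted p 4.38e-03) and Gsta4 (0.98) were higher. Gstm1 was not among them, at 712 ± 365 CPM in vehicles. The 13 lower members were Gsta3, Mgst1, Gstp1, Gstt1, Gstz1, Gstm6, Gstm7, Ugt1a1, Ugt1a5, Ugt1a6b, Ugt2a3, Ugt2b1 and Ugt3a2. These calls rest on the fit that pools the spread over all 5-month groups and both batches. With only the 2 groups compared, 9 members passed (2 higher, 7 lower), beside 1338 genes in place of 2341, and the adjusted p of Gsta1, Gstm3 and Ugt1a9 became 0.0612, 0.0594 and 0.0570. Within either batch 0 members passed, beside 0 genes in batch 1 and 58 in batch 2, which held a single vehicle. In batch 1 alone the log2 fold changes of Gsta1, Gsta2, Gstm3 and Ugt1a9 were 2.13, 1.44, 1.86 and 1.02.

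Low-risk livers against the vehicles of 5 months gave 0 members of 38, beside 0% of all 14773 genes (edgeR). At an unadjusted p under 0.05 there were 4 members, Gstm3 (-1.41), Gsta2 (-0.89), Ugt2b34 (0.43) and Ugt1a7c (1.64), and 934 genes. DESeq2 also gave 0 members, beside 52 of all genes.

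At 10 months the uninvolved liver of high-risk mice was compared with the liver of low-risk mice, 5 samples each. The same 2 directions were seen, with 8 members higher and 17 lower of 40 tested (20% and 42.5%), beside 27.7% and 24.7% of all 16338 genes. The share of members that rose was below that of all genes, and the share that fell above it. The median log2 fold change was -0.21 over the members and 0.05 over all genes. Gstm3 had 51.8, 78.0, 170, 253 and 761 CPM in the 5 uninvolved livers and 10.8, 17.1, 20.4, 25.6 and 32.6 CPM in the 5 low-risk livers. The groups did not overlap, and the highest value was that of the summed libraries 3 and 6. The log2 fold change of Gstm3 was 3.62 (SE 0.63, edgeR adjusted p 3.30e-04), and without that sample it was 2.70.

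Gsta1 had 1.58, 2.44, 4.03, 5.6 and 16.2 CPM in uninvolved and 0.480, 0.557, 0.700, 0.876 and 0.978 CPM in low-risk livers (log2 fold change 3.05, SE 0.55, edgeR adjusted p 2.84e-04). Gsta2 had 28.0, 28.0, 32.7, 51.9 and 83.4 CPM against 4.08, 7.22, 9.95, 11.1 and 12.8 CPM (2.30, SE 0.34, adjusted p 5.80e-05). Every uninvolved liver was above every low-risk liver in both genes. Gstm1 had 797, 932, 1072, 1614 and 2569 CPM against 506 to 774 CPM (median 657) (1.11, SE 0.25, adjusted p 1.34e-03), again without overlap. Gsta4 had 40, 58.1, 65.2, 103 and 125 CPM against 29.4, 31.0, 31.3, 43.1 and 48.1 CPM (1.08, SE 0.25, adjusted p 1.84e-03), and 1 uninvolved liver lay within the low-risk range. Gsta3, in contrast, had 732, 735, 954, 994 and 1030 CPM against 1354, 1528, 1613, 1775 and 2263 CPM (-0.95, SE 0.14, adjusted p 5.11e-05), without overlap.

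The split of the Ugt1a locus was seen again. Ugt1a9 had 34.4, 34.9, 35.1, 45.0 and 114 CPM in uninvolved and 15.8, 19.4, 20.2, 22.5 and 28.6 CPM in low-risk livers (log2 fold change 1.30, SE 0.32, edgeR adjusted p 3.50e-03). Without the sample of 114 CPM the fold change was 0.81 and still passed. Ugt1a1 had 57.1, 60.5, 61.6, 78.9 and 90.1 CPM against 127, 132, 135, 152 and 155 CPM (-1.02, SE 0.15, adjusted p 4.56e-05). Ugt1a5 had 11.5, 13.6, 14, 21.5 and 26.6 CPM against 24.3, 37.4, 39, 61 and 85.7 CPM, overlapping by 1 liver (-1.51, SE 0.36, adjusted p 3.05e-03). Ugt1a7c, at 1.82 to 3.30 against 0.991 to 1.32 CPM, was 1.09 higher (SE 0.20, adjusted p 2.90e-04), and Ugt1a2, at 0.491 to 2.58 against 0.169 to 0.526 CPM, was 1.58 higher (SE 0.46, adjusted p 8.08e-03). The Ugt1a9 share of the Ugt1a counts was 26% ± 9.20 (n = 5) against 7.72% ± 1.03 (n = 5).

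The other members lower in uninvolved liver were Mgst1, Gstz1, Gstk1, Gstt1, Gstt3, Gstm6, Ugt1a6b, Ugt2a3, Ugt2b1, Ugt2b34, Ugt2b36, Ugt2b5, Ugt3a1 and Ugt3a2, by 0.42 (Ugt2b5) to 0.94 (Ugt3a1) on the log2 scale. Gstp1, which had passed at 5 months, was at 491 ± 177 against 688 ± 309 CPM and did not pass (-0.50, SE 0.31, adjusted p 0.184). All 46 members summed to 8427 ± 1700 CPM in uninvolved, 10874 ± 1160 in low-risk and 12047 ± 868 in vehicle livers. Pericentral markers were lower here too (5 of 7, 1893 to 6594 CPM in uninvolved livers), and 7 of 7 cholangiocyte markers (117 to 227 CPM against 44.0 to 67.1 CPM) and 5 of 5 proliferation markers (12.6 to 83.1 CPM against 4.90 to 11.4 CPM) were higher. Of 6 periportal markers 1 was higher and 1 lower, and of 6 hepatocyte markers 0 were higher and 4 lower. Of 7 macrophage markers 2 were higher and 4 lower, and of 7 stellate and fibroblast markers 4 were higher and 1 lower. Of 4 T and NK cell markers 3 were higher and 0 lower, and of 6 endothelial markers 2 were higher and 2 lower. Of 5 B and plasma cell markers 1 was higher and 0 lower, and of 5 erythrocyte markers 0 were higher and 1 lower. Their part in the members' results was not tested.

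The 5- and 10-month risk comparisons share no samples, and their fold changes were alike across the members. Over the 38 members tested at both ages, Pearson's r was 0.934 and Spearman's rho 0.861, as a description, since the genes share libraries and, at some loci, sequence. The sign was the same for 32, and 19 passed at both ages, all 19 in the same direction (6 higher, 13 lower). The agreement over all genes was not computed, so neither these counts nor the correlations can be set beside it. The 6 were Gsta1, Gsta2, Gsta4, Gstm1, Gstm3 and Ugt1a9. Gstm2, Gstm7, Gstp1, Ugt1a6a, Ugt2b35 and Ugt2b38 passed at 5 months alone, which does not show that the ages differ. In the test of the difference itself 0 of 40 members passed, beside 0.193% of all genes with a higher and 0.159% with a lower risk difference at 10 months. At an unadjusted p under 0.05 there were 3 members of 40, Ugt1a6a (1.19), Ugt2b35 (-0.74) and Ugt1a9 (-1.11), and 1958 of all 17572 genes. DESeq2 also gave 0 members, beside 363 of all genes.

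**Figure D5:**
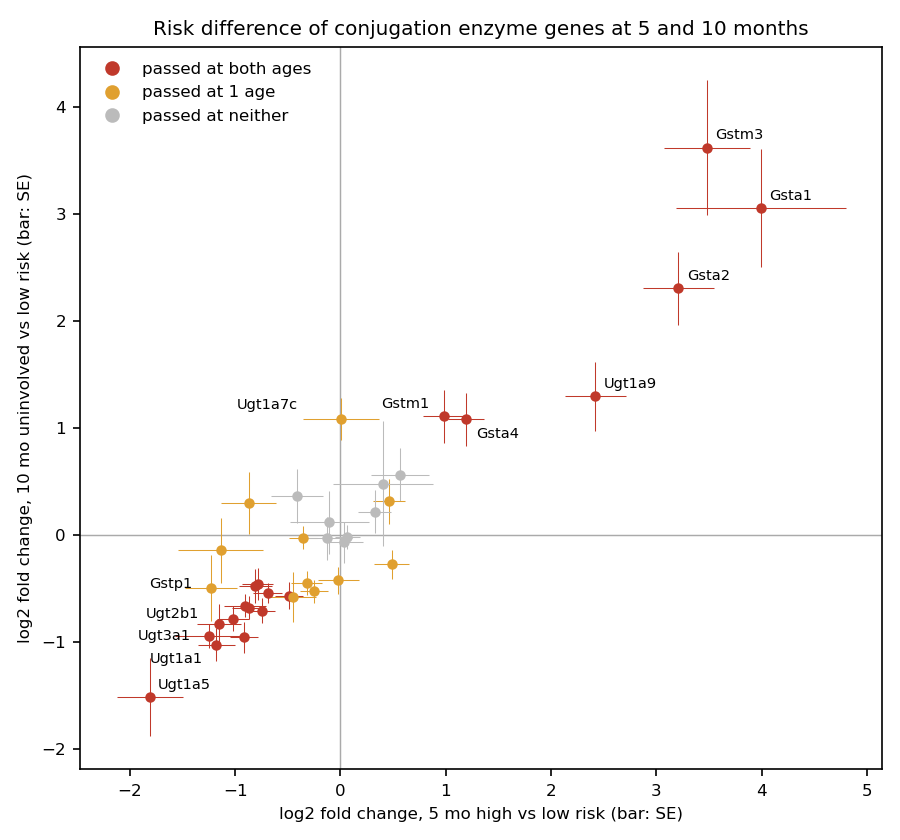
Log2 fold change between high-risk and low-risk livers of 5 months (x axis) and between uninvolved and low-risk livers of 10 months (y axis) for 38 members (points, with SE as bars), coloured by whether the member passed the test at both ages, at 1 or at neither. The 19 members that passed at both ages lie in the upper right (6) and the lower left (13).

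Against the 6 vehicles of 10 months, uninvolved livers had 9 members higher and 19 lower of 40, beside 31.2% and 26.5% of all genes. Gstm3 (4.10, SE 0.60, edgeR adjusted p 5.46e-05), Gsta1 (3.40, SE 0.53, adjusted p 5.52e-05) and Gsta2 (2.35, SE 0.32, adjusted p 1.77e-05) were again the largest increases, and Ugt1a5 (-1.49, SE 0.35, adjusted p 2.25e-03) the largest decrease. Their vehicle levels were 15.3 ± 4.98, 0.563 ± 0.313, 8.72 ± 2.11 and 48.9 ± 19.7 CPM. Counting the library labelled vehicle and tumor as a vehicle ended the calls of Gstm3 (1.61) and Gsta1 (1.94). Low-risk livers against these vehicles gave 0 members of 40, beside 0% of all genes, with 1 member (Ugt3a1, -0.29) and 688 genes at an unadjusted p under 0.05. DESeq2 also gave 0 members, beside 1 of all genes.

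Gsta1, Gsta2, Gstm3 and Ugt1a9 had their highest single values and highest medians of the 10-month groups in tumors. Gsta1 was at 3.20, 23.8 and 72.6 CPM (lowest, median, highest) in 7 tumors, Gsta2 at 35.8, 73.8 and 141 CPM, Gstm3 at 48.7, 335 and 796 CPM and Ugt1a9 at 53.4, 99.1 and 180 CPM. In each of these genes the tumors were above all 6 vehicles, whose highest values were 1.04, 11.9, 22 and 30.6 CPM. Against vehicles 13 members were higher and 14 lower of 40, beside 24.8% and 21% of all genes. The log2 fold changes were 5.86 for Gsta1 (SE 0.67, edgeR adjusted p 2.70e-05), 4.73 for Gstm3 (SE 0.54, adjusted p 2.67e-05), 3.41 for Gsta2 (SE 0.32, adjusted p 5.97e-06) and 2.40 for Ugt1a9 (SE 0.30, adjusted p 4.36e-05). With the vehicle library labelled tumor among the vehicles, Gstm3 was at 2.16 and did not pass. Of 7 cholangiocyte markers 6 were higher in tumors than in vehicles (158 to 777 CPM against 45.6 to 62.2 CPM), of 5 proliferation markers 5 (11.8 to 138.5 CPM against 4.02 to 15.95 CPM), and of 7 stellate and fibroblast markers 3, with 1 lower (446 to 783 CPM against 296 to 517 CPM). The 3 T and NK cell markers tested were higher, and 4 of 6 hepatocyte, 4 of 5 erythrocyte and 3 of 7 pericentral markers were lower, the last at 1085 to 8462 CPM in tumors and at least 9142 CPM in each vehicle. Of 6 periportal markers 2 were higher and 1 lower. Of 7 macrophage markers 2 were higher and 1 lower, of 6 endothelial markers 2 and 3, and of 5 B and plasma cell markers 1 and 0. Their part in these results was not tested.

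Compared with the 5 uninvolved samples, tumors had 7 members higher and 1 lower of 40, beside 7.55% and 10.5% of all genes. Gsta1 was 2.44 higher (SE 0.69, edgeR adjusted p 0.0288), although the 2 groups overlapped (3.20 to 72.6 against 1.58 to 16.2 CPM). Gstp2 was at 60.5 ± 15.3 against 29.0 ± 13.4 CPM (1.06, SE 0.24, adjusted p 0.0126), Ugt2b35 at 343 ± 87.7 against 185 ± 34.6 CPM (0.88, SE 0.18, adjusted p 7.25e-03) and Ugt2b34 at 686 ± 215 against 372 ± 64.8 CPM (0.87, SE 0.21, adjusted p 0.0132). Ugt2b5, Ugt2b36 and Ugt3a1 were the other increases. Ugt1a2 was the only decrease, by 1.82, at 0.359 ± 0.144 against 1.25 ± 0.845 CPM. None of the 7 pericentral or 5 proliferation markers passed here, and of 7 cholangiocyte markers 1 was higher and 1 lower.

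The count between tumor and uninvolved liver depended on single samples. It was 14 without the summed uninvolved sample 3 and 6, 5 without uninvolved liver 5, 5 without uninvolved liver 7, and 13 without tumor 7. The count over all genes moved with it, from 2961 to 3948, 1590, 1611 and 3489. Tumor 7 had the lowest Gsta1, Gsta2, Gsta4, Gstm1, Gstm3 and Ugt1a9 of the tumors (3.20, 35.8, 41.7, 787, 48.7 and 53.4 CPM). With the mouse as a replicate block, since tumor and uninvolved liver carry the same mouse numbers, 4 members passed over 6 pairs (1920 of all genes) and 15 over the 4 pairs without mice 3 and 6 (3037 of all genes). The calls of Gsta1 (1.97, edgeR adjusted p 0.0642), Ugt2b5 (0.55, adjusted p 0.0515), Ugt2b36 (0.435, adjusted p 0.0752) and Ugt3a1 (0.30, adjusted p 0.119) were lost over 6 pairs. In that fit the libraries of uninvolved livers 3 and 6 were counted as separate mice. The fit of 4 pairs, without them, kept all 8 calls.

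The conjugation genes also differed between vehicle livers of different ages, which came from different mice. From 3 weeks to 5 months (sequencing batch 1 only), 16 members rose and 5 fell of 39, beside 11.9% and 12.3% of all genes. Without 5-month vehicle 9, a technically deviating library, again 16 rose and 5 fell, beside 5790 genes in place of 3616. Ugt2b38 went from 1.62 ± 0.381 CPM (n = 7) to 12.9 ± 7.25 (n = 8; log2 fold change in batch 1 3.09, SE 0.37, edgeR adjusted p 2.52e-06), Gstp1 from 165 ± 26.3 to 768 ± 222 CPM (2.14, SE 0.20, adjusted p 6.57e-08), Ugt3a1 from 11.3 ± 2.64 to 49.6 ± 20.1 CPM (2.13, SE 0.23, adjusted p 5.58e-07) and Ugt1a9 from 4.93 ± 1.43 to 20.9 ± 15.8 CPM (2.24, SE 0.34, adjusted p 4.91e-05). Gstp3, Gstt3, Gstm2, Ugt1a1 and Gsto1 were the 5 that fell. Gstp1 and Gstp3, at the same place on chromosome 19, thus moved apart, Gstp3 falling by 1.47 from 44.2 ± 3.96 to 15.7 ± 4.50 CPM. Gstp2, which lies between them, was among the members that rose. Many markers of other cells were lower at 5 months, 6 of 7 of stellate cells and fibroblasts (951 to 1528 CPM at 3 weeks, 137 to 700 CPM at 5 months), 6 of 6 of endothelium (484.1 to 567.6, then 206.3 to 441.9 CPM), 5 of 5 of proliferation (141 to 282, then 4.27 to 88.3 CPM), 4 of 5 of erythrocytes and 4 of 7 of macrophages. The remaining erythrocyte marker was higher, and of 5 B and plasma cell markers 1 was higher and 2 lower. Of 6 cholangiocyte markers tested 1 was higher and 0 lower, and of 3 T and NK cell markers tested 0 passed. Among hepatocyte zone markers, 3 of 6 periportal and 2 of 7 pericentral ones were higher and 0 lower. Their part in the members' age differences was not tested.

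From 5 to 10 months 14 members rose and 1 fell of 39, beside 6.68% and 7.41% of all genes. Gsta3 rose from 1019 ± 233 (n = 8) to 1933 ± 248 CPM (n = 6; log2 fold change 0.95, SE 0.13, edgeR adjusted p 1.99e-04), Ugt3a1 from 49.6 ± 20.1 to 90.5 ± 9.87 CPM (0.84, SE 0.22, adjusted p 0.0169) and Ugt1a6a from 4.16 ± 2.62 to 6.61 ± 1.30 CPM (0.96, SE 0.28, adjusted p 0.0258). Gstm3 fell by 1.71 (SE 0.54, adjusted p 0.0404), from 10.2, 20.7 and 167 CPM (lowest, median, highest) in the 8 younger vehicles to 8.38, 15.9 and 22 CPM in the 6 older ones, with ranges that overlap. That call was lost with the vehicle library labelled tumor counted as a vehicle, where Gstm3 was 0.83 higher at 10 months (adjusted p 0.639), with no filter on low counts (-1.68, adjusted p 0.0691) and with the number as a replicate block (-1.22, adjusted p 0.320). The count of 15 members, beside 2107 genes, became 4 (671 genes), 9 (1128) and 5 (1512) in these fits. Without 5-month vehicle 9 it was 19 (3448 genes). The other increases were Gstt3, Gstm6, Ugt1a1, Ugt1a6b, Ugt2a3, Ugt2b1, Ugt2b34, Ugt2b35, Ugt2b36, Ugt2b5 and Ugt3a2. The levels cover all 8 vehicles of 5 months and the tests those of sequencing batch 1.

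At 3 weeks, maternal TBT was compared with vehicle in 8 against 7 samples. Of 37 members tested 0 passed (edgeR), beside 0% of all 14050 genes. At an unadjusted p under 0.05 there were 2 members, Gsta2 (0.93, SE 0.39) and Ugt1a6a (0.45, SE 0.20), and 474 genes. DESeq2 also gave 0 members, beside 2 of all genes. Gsta2 was at 1.10, 3.00 and 9.74 CPM (lowest, median, highest) in TBT and at 1.40, 1.58 and 3.86 CPM in vehicle livers, with ranges that overlap. Gsta1 was at 0 to 1.27 CPM in TBT and 0 to 0.0872 CPM in vehicle livers and was not tested.

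Genes that supply and carry the substrates and products were read from 4 lists. In 5-month high-risk against low-risk livers, 9 of 24 genes of glutathione supply and use were higher and 6 lower, and these counts stand beside the 20.3% higher and 18.5% lower of all genes. Gpx3, the secreted glutathione peroxidase, was 2.31 higher (SE 0.25, edgeR adjusted p 6.18e-08) and Slc7a11, the cystine importer, 6.06 higher (SE 0.66, adjusted p 7.19e-08), while Glo1, the glutathione-dependent glyoxalase, was 1.03 lower on the log2 scale (-1.03, SE 0.14, adjusted p 6.12e-07). Of 12 genes of UDP-glucuronic acid supply and glucuronide hydrolysis 3 were higher and 7 lower. Ugdh, which makes UDP-glucuronic acid, was 1.2 higher (SE 0.17, adjusted p 1.93e-06), and the downstream genes of ascorbate synthesis Rgn (-1.47, SE 0.17, adjusted p 9.13e-08) and Gulo (-1.21, SE 0.15, adjusted p 3.44e-07) were lower.

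Of 15 tested genes of conjugate transport 5 were higher and 6 lower at 5 months. The export pumps Abcc4 (2.04, SE 0.19, edgeR adjusted p 6.57e-09) and Abcc5 (1.55, SE 0.18, adjusted p 8.53e-08) were higher and the uptake carrier Slco1b2 (-1.70, SE 0.20, adjusted p 1.01e-07) lower. Of 20 regulators 1 was higher and 8 lower. The nuclear receptor CAR gene Nr1i3 (-2.19, SE 0.41, edgeR adjusted p 8.92e-05) and Ppara (-0.93, SE 0.20, adjusted p 3.13e-04), the gene of a fatty acid sensor, were lower. The 1 regulator that was higher, named for that, was Nfe2l2, which encodes NRF2 (0.40, SE 0.11, adjusted p 4.57e-03). At 10 months the 4 lists had 10 higher and 5 lower, 2 and 8, 5 and 6, and 4 and 7, beside 27.7% and 24.7% of all genes. Nr1i3 (-1.21) and Ppara (-0.95) were lower again at 10 months, and Nfe2l2 was higher again (0.58, SE 0.09, adjusted p 8.90e-05).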

How the data were processed

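Liver RNA was sequenced from stranded total RNA libraries, per the labels' protocols. The authors deposited whole-number counts per gene. Per the submitters' processing notes reads were processed with Trim Galore, HISAT2 and featureCounts on mm10, and per the file's name the counts were adjusted between batches with ComBat-seq. Strand, multi-mapping and adjustment settings are not given in the sources used here. All 55536 gene identifiers matched GENCODE M21, the source of positions.

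The test of the counts was that of edgeR 4.0.16, under R 4.3.3 (TMM, filterByExpr, robust quasi-likelihood F tests, Benjamini-Hochberg over all genes, 0.05), and 5-month fits held the sequencing batch as a covariate. Groups follow the labels, and the vehicle library labelled tumor entered no comparison. Full statistics were given for members past the test with at least 1 CPM, largest log2 fold change first, up to 10 in the risk comparisons and 4 in the others. Gsta3, Mgst1, Gstm1, Gstm2 and Ugt2b35 at 5 months, Ugt1a2 at 10 months, the near copies and Nfe2l2 were given after their values were seen, and 1 regulator that the rule names and 1 motif are not reported here. The members and lists were chosen with earlier results of these data known.

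Tumor and uninvolved liver carry the same mouse numbers. The correlation of the deviations of same-numbered samples ran from -0.40 to 0.72 over 6 pairs. Alternatives were RLE size factors, DESeq2 1.42.0, no low-count filter, protein-coding genes only, no batch covariate, single batches, other sets of groups in a fit, replicate blocks, repeat libraries kept separate, the vehicle library labelled tumor counted as vehicle, and fits without deviating or single samples. Fits without high-risk liver 1, low-risk liver 2 and vehicle 9 of 5 months and without tumor 7 were added after seeing the data.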

Additional observations from a re-analysis of the deposited data

Results flagged for a closer look

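Within groups of 4 to 10 samples, 12 values of named members lay far from the rest of their group, of 144 groups tested, and chance flags about 1 in 20. At 5 months high-risk liver 1 was the low sample for Gsta1 (1.75 CPM), Gstm1 (541 CPM) and Gstm3 (23.4 CPM), and high-risk liver 22 was the low sample for Ugt1a7c (0.484 CPM). Among tumors, number 7 was the low sample for Gsta1 (3.20 CPM), Gsta4 (41.7 CPM) and Gstm3 (48.7 CPM). The summed sample of uninvolved livers 3 and 6 was high for Ugt1a9 (114 CPM). Ugt2b38 was low in 3-week TBT liver 2 (0.0714 CPM) and high in 10-month vehicle 2 (26.9 CPM). Ugt3a1 was low in 3-week vehicle 1 (6.22 CPM) and high in 10-month vehicle 7 (110 CPM).

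The 10-month vehicle library labelled as a tumor, which entered no comparison, had more than 2 times the highest level of the 6 vehicles in 5 of the 18 named members. The share of all genes past this rule was not computed, so the count cannot be set beside it. It had 8.29 CPM of Gsta1, 39.9 CPM of Gsta2, 1552 CPM of Gstm1, 497 CPM of Gstm3 and 3.52 CPM of Ugt1a7c. For Gsta1, Gsta2, Gstm1 and Gstm3 these values lie within the range of the TBT tumors. It is a single library of 11.5 M counts, so no test was made. It is also among the technically deviating libraries, with a mitochondrial share of 14.1%.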

How the results depend on the processing

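Of 167 member results past the test, all kept their direction and call with RLE size factors and with DESeq2. Over all alternatives 1659 of 1853 values were on the same side of the threshold, 192 lost the call and 2 changed sign. For high-risk against low-risk livers of 5 months the count of members (25) ran from 21 to 28 under the alternatives other than batch 1 only (8). Against 5-month vehicles the 18 fell to 9 with only the 2 groups compared, 0 in batch 1 only, 0 in batch 2 only and 0 with the number as a replicate block (3 pairs that share only a number), where Gstm7 was at 0.035 (log2). With that block 0 of all genes passed as well. Between tumor and uninvolved liver the 8 became 17 with all 10-month groups in 1 fit, where the count over all genes rose from 2961 to 5346. The 8 became 4 and 15 with the mouse as a replicate block (6 and 4 pairs), 13 without tumor 7 and 5 to 14 with each uninvolved sample left out. Between vehicles of 10 and 5 months the 15 became 9 with no filter, 5 with the number as a replicate block and 4 with the vehicle library labelled tumor counted, where Gstm3 was 0.83 higher at 10 months. The block moved no other count by over 1.5 times. Leaving out each uninvolved or low-risk sample gave 24 to 26 members between uninvolved and low-risk livers of 10 months (25), and leaving out each uninvolved sample 27 to 28 between uninvolved livers and vehicles (28). The cause of these shifts was not tested. Single-batch, 2-group and paired fits also held fewer samples, and the part of this was not tested either. No alternative without deviating libraries exists for the 10-month fits, which hold none. Levels under about 1 CPM rest on few counts.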

Other observations

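Among the 8 vehicles of 5 months, numbers 4 and 6 had the highest levels of Gsta1, Gsta2, Gstm3 and Ugt1a9. They were singled out after their values were seen. Vehicle 4 had 7.56 CPM of Gsta1, 21.8 CPM of Gsta2, 1532 CPM of Gstm1, 167 CPM of Gstm3 and 49.1 CPM of Ugt1a9, and vehicle 6 had 4.12, 12.9, 792, 84.1 and 42.4 CPM of the same genes. Their Ugt1a1 (43.2 and 51.5 CPM) and Ugt1a5 (4.02 and 9 CPM) were the lowest of the group for Ugt1a5, while vehicle 9 (50 CPM) was also low for Ugt1a1. Their Mgst1 (2546 and 2528 CPM), Gstp1 (880 and 547 CPM) and, in vehicle 4, Ugt2b1 (452 CPM) were within the low-risk range, and the Ugt2b1 of vehicle 6 (201 CPM) was below it.

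Low-risk liver 2 of 5 months had 13.1 CPM of Gsta1 and 22 CPM of Ugt1a7c, where the next highest low-risk livers had 2.16 and 3.52 CPM. Its Gsta2 (8.10 CPM) and Gstm3 (16.6 CPM) were within the range of the other low-risk livers.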
